A study of Mus musculus with 4 samples.

Results

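The subject is a set of 7 genes of gland-type secretion in mouse mammary tumor cells: the secretoglobins Scgb2b27 and Scgb1b27, the carbonic anhydrase Car6, the water channel Aqp5, the protease inhibitor family gene Wfdc18, the serpin Serpina3h and the matrix protein gene Emid1. They were chosen by symbol for low values in the knockout-labelled libraries, so their levels and their difference between groups are described here without a test. All 7 had a row among the 23951 gene rows of the deposited expression table, and all 7 were among the 11138 genes that reached 1 FPKM (fragments per kilobase of transcript, scaled to library size) in at least 2 libraries. Scgb1b27 and Serpina3h were below 1 FPKM in both knockout-labelled libraries and met that filter through wild-type alone.

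The libraries were made from YFP-positive mammary tumor cells of female MMTV-PyMT mice carrying the Rosa26-Stop-YFP reporter. In these mice polyoma middle T antigen, driven in mammary epithelium by the MMTV promoter, gives rise to tumors. All mice had received Ad-K8-Cre, an adenovirus that expresses Cre under the Krt8 promoter, into the mammary ducts 2 to 3 months before the sort. There were 2 libraries with a knockout genotype label, from mice that the series design describes as carrying the conditional Lsd1L/L alleles, and 2 labelled wild-type for Lsd1, from Lsd1+/+ mice. For the knockout pair the tissue field gives Lsd1+/+ and the genotype field gives a knockout, so these libraries are called knockout-labelled. The reporter marks cells that have undergone Cre recombination and does not by itself show deletion of Lsd1. The age of the mice is not stated, nor is it stated that the libraries came from separate animals; p-values therefore measure the spread between these libraries.

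Exocrine glands, such as the salivary, lacrimal, sweat and mammary glands, release proteins and fluid through ducts onto a surface. Acinar or alveolar cells pass secreted proteins through the endoplasmic reticulum into granules or vesicles, while channels and transporters in their membranes move chloride, bicarbonate and water into the lumen. In the mouse, secretoglobins of the androgen-binding protein group are secreted as pairs of an alpha and a beta-gamma subunit and are known from saliva and tears, and Car6 is the secreted carbonic anhydrase of saliva and milk. In the mammary gland this machinery serves milk secretion.

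Kdm1a, which encodes the histone demethylase LSD1 and is the gene targeted for deletion, was at 20.2 and 22.8 FPKM in the knockout-labelled libraries and at 52.5 and 22.9 FPKM in wild-type. The second wild-type library thus stood next to the knockout-labelled libraries, and the difference of -0.67 in mean log2(FPKM + 1) was within the spread between replicates (SE 0.46; limma, adjusted p = 0.34). Leaving out the first wild-type library brought it to -0.09, and leaving out the second to -1.25. Values per gene do not separate deleted from retained exons, so this checks the labels only in part. Total FPKM ranged from 401786 to 449838 per library, and read depth, judged from the step sizes of low values, was 0.85 to 1.03 times that of the second knockout-labelled library. Log2 values correlated across genes at 0.98 within the pair labelled knockout and at 0.85 within the wild-type pair.

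The stretch before the annotated start of 4 of these genes is shown, because the genes that were low together begin in DNA of very different composition. RefSeq promoter windows were matched for 6 of the 7 genes, and Serpina3h is named only. Each sequence runs 5′ to 3′ from 250 bases before the start through the first 30 bases after it, in build GRCm38.p6, which is not the mm9 build of the expression table. Capitals mark CG dinucleotides and the TATA box motif TATAAA, which did not overlap.
Scgb2b27, chr7:34013913-34014192, minus strand: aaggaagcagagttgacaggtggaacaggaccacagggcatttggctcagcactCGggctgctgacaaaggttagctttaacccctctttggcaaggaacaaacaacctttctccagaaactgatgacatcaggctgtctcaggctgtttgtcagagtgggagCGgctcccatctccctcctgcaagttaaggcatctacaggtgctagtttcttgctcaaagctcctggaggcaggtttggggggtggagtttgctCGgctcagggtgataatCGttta
Scgb1b27, chr7:34021231-34021510, plus strand: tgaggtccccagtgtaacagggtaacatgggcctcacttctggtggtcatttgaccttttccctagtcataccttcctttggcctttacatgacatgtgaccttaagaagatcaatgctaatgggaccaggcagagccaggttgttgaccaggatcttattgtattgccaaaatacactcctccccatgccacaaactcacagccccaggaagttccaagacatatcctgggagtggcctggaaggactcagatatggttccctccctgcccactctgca
Wfdc18, chr11:83708754-83709033, plus strand: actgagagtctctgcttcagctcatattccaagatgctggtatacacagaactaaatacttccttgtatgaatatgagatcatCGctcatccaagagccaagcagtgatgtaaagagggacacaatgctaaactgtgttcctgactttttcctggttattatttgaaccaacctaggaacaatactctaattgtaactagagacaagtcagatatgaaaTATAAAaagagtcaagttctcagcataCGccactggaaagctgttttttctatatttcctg
Aqp5, chr15:99590778-99591057, plus strand: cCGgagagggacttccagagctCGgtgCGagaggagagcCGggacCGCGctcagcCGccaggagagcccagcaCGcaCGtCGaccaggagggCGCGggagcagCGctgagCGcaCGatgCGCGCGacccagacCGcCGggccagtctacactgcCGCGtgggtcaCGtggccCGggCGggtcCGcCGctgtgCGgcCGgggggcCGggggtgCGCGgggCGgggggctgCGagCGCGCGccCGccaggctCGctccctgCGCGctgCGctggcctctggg

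The secretoglobin windows held 4 CG dinucleotides for Scgb2b27 and 0 for Scgb1b27, against a median of 6 over 32851 RefSeq windows of the same length. Car6 had 3 and Wfdc18 had 2. The window of Aqp5 held 42, more than 98% of all windows do, and the first of the 2 windows of Emid1 held 35, while its second held 6. The GC content was 37.9% for Wfdc18, between 50% and 52.5% for the secretoglobins and Car6, and 78.6% for Aqp5. The letters TATAAA, searched on both strands, were found in the Wfdc18 window alone, 31 bases before its start; 13.1% of all windows hold them. AGAACA, a steroid receptor half-site, TTCNNNGAA, a STAT motif, and GTAAACA, a forkhead motif, were searched likewise and were in none of the members' windows, where 17.8%, 7.83% and 3.49% of all windows hold them. A missing match says only that these letters are not in this window.

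Scgb2b27 and Scgb1b27 encode a beta-gamma and an alpha subunit of the androgen-binding protein group, and they stand next to each other in the RefSeq order of chromosome 7, on opposite strands. Scgb2b27 was at 1.57 and 0.623 FPKM in the knockout-labelled libraries and at 148 and 84.1 FPKM in wild-type. Both wild-type libraries were far above both libraries labelled knockout, whose mean was 0.944% of the wild-type mean. Scgb1b27 was at 0.62 FPKM in 1 knockout-labelled library and listed at 0 in its replicate, and at 66.1 and 26.1 FPKM in wild-type. The first wild-type library held more of both transcripts than the second. On the FPKM scale, which is per length, Scgb2b27 was at 2.53 times the level of Scgb1b27 in the first knockout-labelled library, and at 2.24 and 3.22 times in the wild-type libraries. The ratio is not defined in the second knockout-labelled library, where Scgb1b27 was listed at 0. Because this family has many near copies, 49 secretoglobin entries on that chromosome in RefSeq, reads of these genes could be split between copies in ways the table does not show.

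Car6, the secreted enzyme that interconverts carbon dioxide and bicarbonate, was at 2.62 and 1.40 FPKM in the knockout-labelled libraries and at 140 and 32.0 FPKM in wild-type. The groups did not overlap, but the wild-type libraries differed from each other by 4.38 times, the widest wild-type gap of the 7 genes. Aqp5, the apical water channel of acinar cells in several exocrine glands, was at 8.23 and 7.98 FPKM in the knockout-labelled libraries and at 259 and 102 FPKM in wild-type. Its mean was 8.11 ± 0.175 FPKM in the knockout-labelled libraries and 181 ± 111 FPKM in wild-type (SD, n = 2 each).

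Wfdc18, a small secreted protein with a WAP four-disulfide domain, long known as Expi, was by far the most abundant of the 7. It was at 555 FPKM in both libraries labelled knockout and at 6417 and 2917 FPKM in wild-type. It ranked 99 and 102 among all gene rows in the knockout-labelled libraries, and 2 and 12 in wild-type, so a transcript that was lower there still stood among the most abundant. Wfdc18 made up 96% and 96.5% of the summed FPKM of the 7 genes in the knockout-labelled libraries, and 88.5% and 89.1% in wild-type. The 7 genes together held 0.144% and 0.143% of all FPKM in the knockout-labelled libraries, and 1.80% and 0.728% in wild-type.

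Serpina3h, of the mouse cluster of genes related to human antichymotrypsin, was at 0.243 and 0.329 FPKM in the knockout-labelled libraries and at 12.03 and 20.2 FPKM in wild-type. It was the exception among the 7 in being higher in the second wild-type library, with a ratio of the first to the second of 0.597, where the other 6 genes had ratios of 1.76 to 4.38. RefSeq lists Serpina3h as a transcribed pseudogene among 14 Serpina3 entries of chromosome 12, so its value is uncertain where reads match several copies. Emid1, a secreted protein with an EMI domain, was at 9.88 and 10.02 FPKM in the knockout-labelled libraries and at 211 and 94.3 FPKM in wild-type. The values labelled knockout were nearly equal, and the wild-type values differed by 2.24 times.

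**Figure D1:**
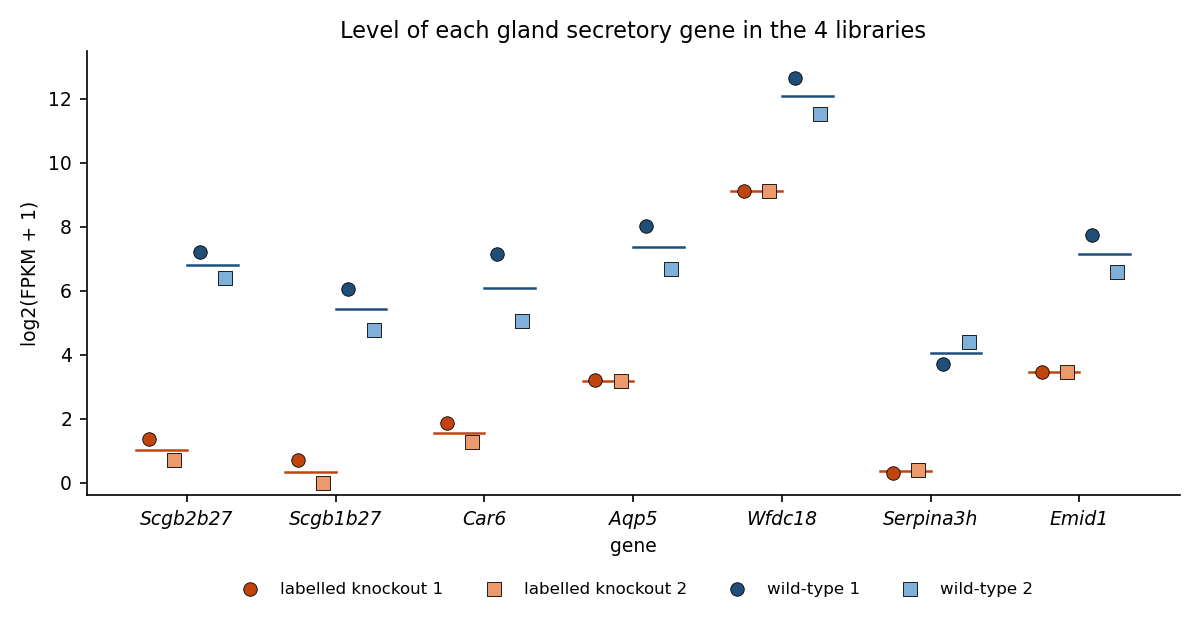
Level of each of the 7 genes as log2(FPKM + 1) in the 2 libraries labelled knockout (orange) and the 2 wild-type libraries (blue), with circles for replicate 1, squares for replicate 2 and a line at each group mean. No gene's groups overlap, Wfdc18 is highest in every library, and Serpina3h is the gene with its second wild-type library on top.

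On the log2(FPKM + 1) scale the difference of group means, labelled knockout minus wild-type, was -5.78 for Scgb2b27, -5.07 for Scgb1b27, -4.53 for Car6 and -4.17 for Aqp5. It was -3.70 for Emid1, -3.69 for Serpina3h and -2.96 for Wfdc18. The median over the 7 genes was -4.17, against 0.08 over all 11138 genes tested. All 7 genes had both libraries labelled knockout below both wild-type libraries, which 32.1% of all tested genes also had, while 39.3% had both above; the 7 genes were picked for this. The scale understates differences of genes near 1 FPKM: with a pseudocount of 0.1 in place of 1 the difference was -7.28 for Scgb1b27, -6.67 for Scgb2b27 and -5.35 for Serpina3h. By level, the order in wild-type was Wfdc18, Aqp5, Emid1, Scgb2b27, Car6, Scgb1b27 and Serpina3h in both libraries. In the knockout-labelled libraries it was Wfdc18, Emid1, Aqp5, Car6 and Scgb2b27, followed by Scgb1b27 and Serpina3h, which changed places between the 2 libraries. In wild-type, each of Aqp5, Emid1, Scgb2b27, Car6 and Scgb1b27 overlapped its neighbours among these 5 in level over the 2 libraries, while Wfdc18 above and Serpina3h below did not overlap them.

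Markers of the cell types that the sort could hold moved between the same libraries. The 9 epithelial markers (Epcam, Cdh1, 4 keratins and 3 claudins) summed to 756 and 776 FPKM in the knockout-labelled libraries and to 12741 and 2810 FPKM in wild-type. All 9 were lower in the knockout-labelled libraries, with differences of -3.43 to -2.41 on the log2 scale and a median of -2.97; 1 of the 9 passed the test across all genes, in which 6.99% of tested genes were called lower and 9.51% higher (limma, adjusted p under 0.05). None of the 9 was at 0 in any library. The 12 lymphocyte markers summed to 1873 and 1762 FPKM in the knockout-labelled libraries and to 16.8 and 73.6 FPKM in wild-type. All 12 had a higher mean in the knockout-labelled libraries, and 11 of 12 were called higher (limma, adjusted p under 0.05). Cd3g, a T cell receptor chain, was at 421 and 388 FPKM in the knockout-labelled libraries and at 4.35 and 13.51 FPKM in wild-type. In bulk RNA, fewer cells of a type and less RNA per cell cannot be told apart, and the part of these markers in the values of the 7 genes was not tested.

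The macrophage markers summed to 652 and 602 FPKM in the knockout-labelled libraries and to 362 and 5661 FPKM in wild-type, so that the second wild-type library stood apart. Endothelial, fibroblast and adipocyte marker sums were also highest in that library. Of the 10 macrophage markers 0 passed, and 0 of 5 endothelial, 0 of 7 fibroblast and 0 of 1 adipocyte markers tested (limma). Over all 11138 genes tested, 6.99% were called lower and 9.51% higher, and 4395 had an unadjusted p under 0.05 (limma). With so few markers tested, 0 calls do not show that these lists were unchanged. The 8 neutrophil markers summed to 1205 and 1289 FPKM in the knockout-labelled libraries and to 589 and 619 FPKM in wild-type. Of these 3 were called higher (limma, adjusted p under 0.05). Mmp8 was listed at 0 in the first wild-type library. Ltf, which also stands in the list of gland products, was the 1 marker with a lower mean. It was at 42.3 and 37.3 FPKM in the knockout-labelled libraries and at 313 and 76.4 FPKM in wild-type, a large part of the first wild-type sum. The 7 myoepithelial markers summed to 61.3 and 66.4 FPKM in the knockout-labelled libraries and to 337 and 112 FPKM in wild-type. All 5 tested had a lower mean, and 1 was called lower, the smooth muscle actin gene Acta2.

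**Figure D2:**
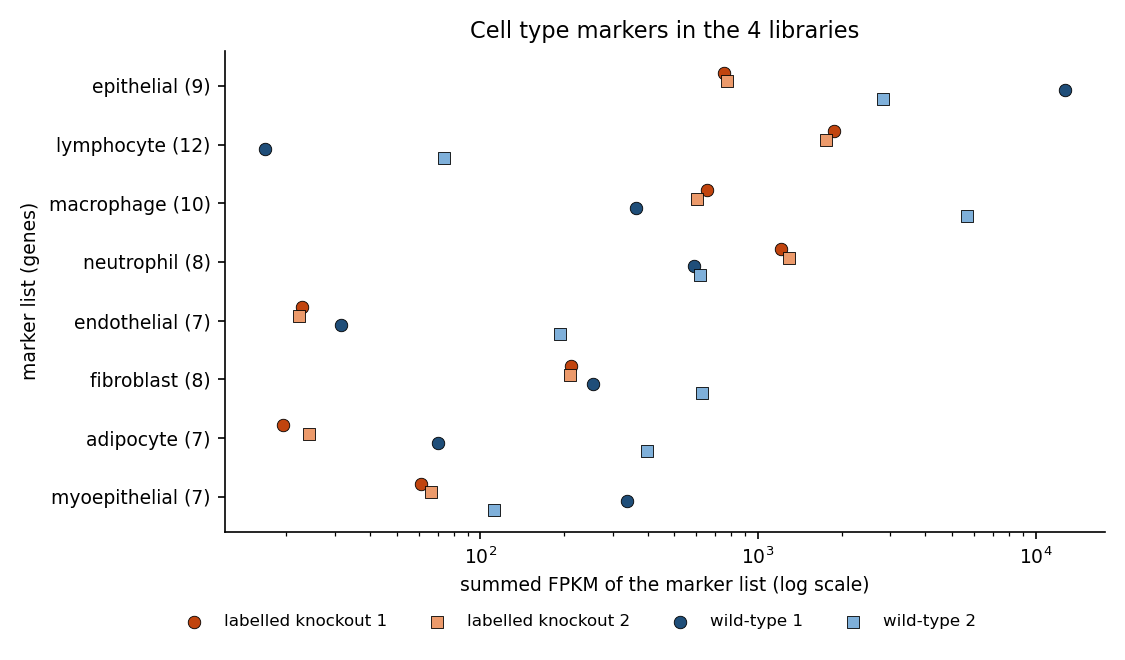
Summed FPKM of 8 cell type marker lists (log axis, number of genes in brackets) in each library, with orange for labelled knockout and blue for wild-type. The epithelial sum is lower and the lymphocyte sum higher in both libraries labelled knockout, and the macrophage sum is highest in the second wild-type library.

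Beside the epithelial markers of the same library, the 7 genes spread apart. Wfdc18 stood 4.29 and 4.08 log2 units above the epithelial median in the knockout-labelled libraries and 3.61 and 4.70 above it in wild-type. Its position relative to epithelial markers thus overlapped between groups, with a difference of 0.03. Relative to Epcam, an epithelial adhesion protein, its level was 477% and 474% in the knockout-labelled libraries and 475% and 758% in wild-type. Scgb2b27 stood at -3.47 and -4.34 relative to the epithelial median in the knockout-labelled libraries and at -1.82 and -0.40 in wild-type, so these groups did not overlap. As a share of the Epcam level it was 1.35% and 0.532% in the knockout-labelled libraries, against 10.9% and 21.9% in wild-type.

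Scgb1b27 and Car6 were also lower relative to the epithelial median, with differences of -2.08 and -1.55 log2 units, and Aqp5 had -1.18. For Aqp5 the values were -1.62 and -1.87 in the knockout-labelled libraries and -1.01 and -0.12 in wild-type, which did not overlap. Emid1 was at -1.39 and -1.57 in the knockout-labelled libraries and at -1.31 and -0.24 in wild-type, and its lowest wild-type value lay next to the values labelled knockout. Serpina3h overlapped between groups, at -4.52 and -4.62 in the knockout-labelled libraries and -5.33 and -2.41 in wild-type. Its share of the Epcam level did not overlap, at 0.209% and 0.281% with the knockout label and 0.89% and 5.24% in wild-type. For Serpina3h and Scgb1b27, both below 1 FPKM with the knockout label, adding 1 before the log limits how far the position can fall. Scgb1b27 was at 0.533% and 0% of Epcam in the knockout-labelled libraries, and at 4.89% and 6.79% in wild-type. The raw differences of 6 of the 7 genes were larger than that of each of the 9 epithelial markers, and that of Wfdc18 lay among them, with 5 markers lower still. These positions are descriptions, since the genes were chosen for the raw difference.

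**Figure D3:**
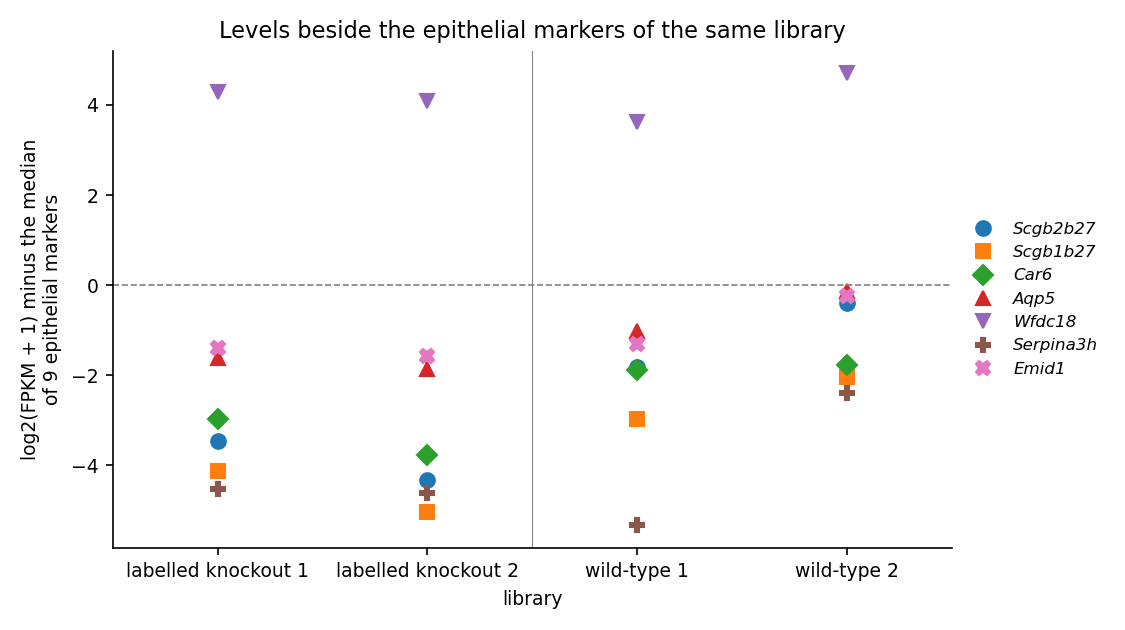
Each gene's log2(FPKM + 1) minus the median of the 9 epithelial markers in the same library, with the 2 libraries labelled knockout on the left and the wild-type pair on the right. Wfdc18 lies between 3.61 and 4.70 in all 4 libraries, while both secretoglobins lie lower in the knockout-labelled libraries than in wild-type.

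Within wild-type, a comparison the choice of genes did not use, 6 of the 7 genes were higher in the first library than in the second, as 51.8% of all tested genes were. The 9 epithelial markers were all higher there, by 2.51 to 6.22 times. The members' ratios of 1.76 for Scgb2b27, 2.20 for Wfdc18, 2.24 for Emid1 and 0.597 for Serpina3h were below that whole range, those of Scgb1b27 (2.53) and Aqp5 (2.54) at its lower edge, and that of Car6 (4.38) inside it. With 1 library on each side this comparison has no replicate check. Within the pair labelled knockout, Wfdc18, Emid1 and Aqp5 differed by at most 1.03 times, whereas Scgb2b27 and Car6, at low levels, differed by 2.51 and 1.87 times.

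Neighbours were the nearest protein-coding genes on either side of the 7 that had a row in the expression table. The RefSeq entry after Wfdc18, Wfdc21, was passed over in this way. Of the neighbours 7 were tested and 0 passed, where 16.5% of all tested genes were called (limma, 2 had an unadjusted p under 0.05). Those 2 were Serpina3i and Rhbdd3. Wfdc17, beside Wfdc18 and of the same domain family, was at 188 and 200.4 FPKM in the knockout-labelled libraries and at 64.6 and 1026 FPKM in wild-type (limma, adjusted p = 0.85). Like the macrophage marker sum, it was lowest in the first wild-type library and highest in the second, where Wfdc18 had both wild-type libraries on top. Eno1, the glycolytic enzyme gene beside Car6, was at 60.1 and 53.3 FPKM in the knockout-labelled libraries and at 53.4 and 41.2 FPKM in wild-type (limma, adjusted p = 0.42), with overlapping groups. Of the neighbours of Serpina3h, Serpina3g was at 18.8 and 15.9 FPKM in the knockout-labelled libraries and at 2.13 and 15.3 FPKM in wild-type, and Serpina3i at 0.433 and 0.13 FPKM with the knockout label and at 2.17 and 4.96 FPKM in wild-type (limma, adjusted p = 0.32 and 0.057). Rhbdd3, beside Emid1, was at 1.41 and 2.03 FPKM in the knockout-labelled libraries and at 3.42 and 4.63 FPKM in wild-type, with groups apart (difference -0.88, SE 0.27; limma, adjusted p = 0.096). Kremen1, on the other side of Emid1, and Heatr6, on the other side of Wfdc18, each past 1 skipped entry, had overlapping groups (limma, adjusted p = 0.83 and 0.82). The aquaporin genes on either side of Aqp5 were near or at 0: Aqp2 was at 0.104 and 0.32 FPKM in the knockout-labelled libraries and listed at 0 in wild-type, and Aqp6 was listed at 0 in all 4 libraries. Scgb2b26 was listed at 0 in the knockout-labelled libraries and at 0.176 and 0.283 FPKM in wild-type, and Scgb1b30 was listed at 0 in all 4 libraries.

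Among other members of the same families, few were measured. Calls among them stand beside 6.99% of all tested genes called lower and 9.51% higher. Of 22 further secretoglobin rows 18 were listed at 0 in every library and 1 was tested: Scgb1c1, which fell to 1.09 and 1.01 FPKM in the knockout-labelled libraries, against 19.4 and 7.92 FPKM in wild-type (difference -2.72, SE 0.47; limma, adjusted p = 0.041). Of 5 further carbonic anhydrases tested 1 fell and 4 did not pass, with a median of -1.24. The one that fell was Car9, a membrane enzyme known as a hypoxia marker. It was at 0.596 and 0.619 FPKM in the knockout-labelled libraries and 6.97 and 3.72 FPKM in wild-type (limma, difference -1.93, SE 0.34, adjusted p = 0.041). Car9 met the filter through wild-type alone, so its call is no independent support. Car2, the abundant cytosolic enzyme, was at 42.01 and 42.4 FPKM in the knockout-labelled libraries and at 196 and 27.5 FPKM in wild-type, so its wild-type values lay on either side (limma, adjusted p = 0.60). Car12, another membrane enzyme, was at 1.93 and 1.95 FPKM in the knockout-labelled libraries and at 27.4 and 5.71 FPKM in wild-type (limma, adjusted p = 0.12).

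The water channel Aqp3, which also carries glycerol, was at 15.9 and 13.9 FPKM in the knockout-labelled libraries and at 42.6 and 4.92 FPKM in wild-type, and Aqp1, a channel of endothelial cells among others, at 0.834 and 0.683 FPKM with the knockout label and at 1.58 and 11.01 FPKM in wild-type. Neither of the 2 aquaporins tested passed, and of 6 further WAP domain genes 0 passed (limma). Over all tested genes 16.5% were called. Slpi, a secreted inhibitor of leukocyte proteases, was at 72.1 and 78.5 FPKM in the knockout-labelled libraries and at 56.8 and 96.1 FPKM in wild-type, and the milk protein gene Wap was at 18.2 and 14.1 FPKM with the knockout label and at 68.6 and 12.5 FPKM in wild-type. Both had overlapping groups. Of 4 further Serpina3 genes tested, Serpina3n fell, with 1.90 and 1.57 FPKM in the knockout-labelled libraries and 17.0 and 10.2 FPKM in wild-type (difference -2.38, SE 0.33; limma, adjusted p = 0.032), and 3 did not pass. Of 4 further EMI domain genes 0 passed (limma), beside the same share over all tested genes. Egfl7, an endothelial gene, was at 3.22 and 5.14 FPKM in the knockout-labelled libraries and at 4.49 and 243 FPKM in wild-type.

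The families and 4 lists of gland function were taken from general knowledge, with earlier results of these data known. Over all of them, 89 genes outside the 7 were tested. Of these 14 fell, 6 rose and 69 did not pass, where 6.99% of all tested genes were called lower and 9.51% higher, with a median difference of -0.96 against 0.08 over all genes tested; 68 of 89 were lower, a direction in which the epithelial markers also stood. Of the 20 genes called, 6 were under 1 FPKM in both libraries of 1 group and met the filter through the group where they were high, so their calls are no independent support: Car9, Creb3l4, Spdef, Klk1, Sytl2 and Tff1. All 20 calls ended without either knockout-labelled library, where 0 genes of the whole table passed by limma (1385 without the first and 1346 without the second had an unadjusted p under 0.05). With 1 wild-type library removed, the first or the second, 55 and 60 of the 89 were called lower and 17 and 20 higher; the fit then holds no spread between wild-type libraries and takes the lone one to vary like the pair labelled knockout.

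**Figure D4:**
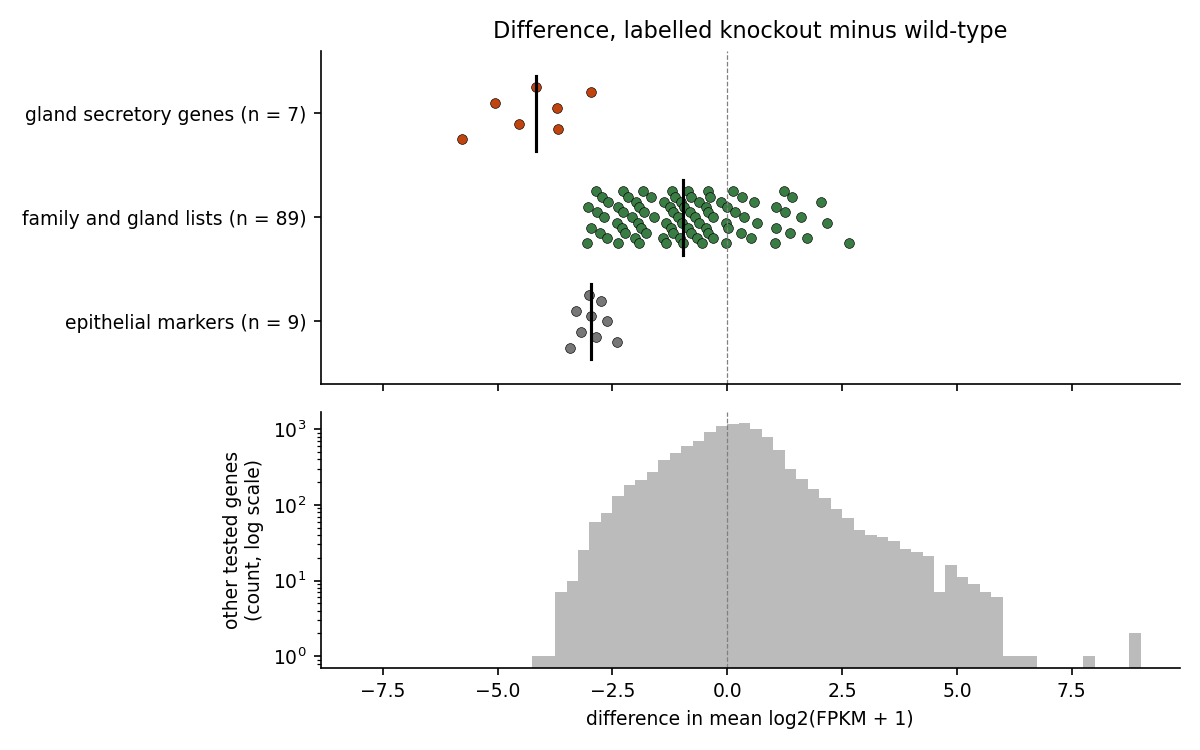
Difference in mean log2(FPKM + 1), labelled knockout minus wild-type, for the 7 gland secretory genes, 89 genes of their families and of gland function lists, and 9 epithelial markers. Points are genes, with a black line at each median. Below is a histogram, on a log count axis, of the tested genes outside the 7, which includes the list genes and epithelial markers. The medians lie at -4.17, -0.96 and -2.97.

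Of 14 secreted products of glands tested 1 fell, 2 rose and 11 did not pass, which is near the shares over all tested genes (6.99% lower, 9.51% higher). The median difference was -1.04, against 0.08 over all genes tested, and 11 of the 14 had a lower mean. Tcn2, the transporter of vitamin B12 in secretions and plasma, fell to 15.0 and 17.0 FPKM in the knockout-labelled libraries, against 132 and 87.3 FPKM in wild-type (difference -2.68, SE 0.28; limma, adjusted p = 0.025). Lcn2, a secreted iron siderophore-binding protein, was at 369 and 352 FPKM in the knockout-labelled libraries and at 5899 and 1166 FPKM in wild-type (limma, adjusted p = 0.093), and the secreted chaperone Clu at 26.1 and 30.8 FPKM with the knockout label and at 531 and 112 FPKM in wild-type (limma, adjusted p = 0.078). The genes that rose were low: the trefoil factor Tff1 was at 5.47 and 5.07 FPKM in the knockout-labelled libraries and listed at 0 in both wild-type libraries, and the kallikrein Klk1 at 3.51 and 2.92 FPKM with the knockout label, against 0.047 FPKM in wild-type replicate 1 and a listed 0 in wild-type replicate 2 (limma, adjusted p = 0.024 for each). Both genes met the filter through the knockout-labelled libraries alone, and neither call was made with no filter on low values. Of 35 rows in the list, 11 were listed at 0 in every library, among them the salivary products Muc19 and Smr3a. The lysozyme gene Lyz2, abundant in macrophages, was at 869 and 804 FPKM in the knockout-labelled libraries and at 238 and 9165 FPKM in wild-type.

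Of 19 fluid transport genes tested 2 fell, 1 rose and 16 did not pass, near the 16.5% called over all tested genes, and the median difference was -0.03. Ano1, the calcium-activated chloride channel of acinar cells, fell to 1.90 and 2.27 FPKM in the knockout-labelled libraries, against 41.5 and 13.8 FPKM in wild-type (difference -3.02, SE 0.58; limma, adjusted p = 0.047). Fxyd3, a regulator of the sodium pump in epithelia, fell to 68.1 and 79.4 FPKM with the knockout label, against 709 and 285 FPKM in wild-type (difference -2.60, SE 0.50; limma, adjusted p = 0.046). Both calls ended after scaling all libraries to 1 total (limma, adjusted p = 0.055 and 0.056), and that of Fxyd3 with a pseudocount of 0.1 (limma, adjusted p = 0.052). Orai1, the store-operated calcium channel, which lymphocytes also express, rose by 1.24 (SE 0.18; limma, adjusted p = 0.033), with 46.1 and 47.3 FPKM in the knockout-labelled libraries and 19.8 and 18.5 FPKM in wild-type. The calcium-gated potassium channel Kcnn4 was at 65.8 and 64.9 FPKM in the knockout-labelled libraries and at 193 and 90.3 FPKM in wild-type (limma, adjusted p = 0.16).

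Of 26 genes of the secretory pathway and of granule release, 6 fell, 2 rose and 18 did not pass, with a median of -0.73, where 6.99% of all tested genes were called lower and 9.51% higher. Spdef, a transcription factor of secretory epithelial cells, fell to 0.0774 and 0.0479 FPKM in the knockout-labelled libraries, against 3.48 and 4 FPKM in wild-type (difference -2.15, SE 0.18; limma, adjusted p = 0.024). Stx3, an apical membrane fusion protein, fell by 1.99 (SE 0.28), Tmed3, a cargo receptor of the early secretory pathway, by 2.27 (SE 0.33) and the vesicle fusion gene Vamp8 by 0.96 (SE 0.18). Sytl2, a Rab27 effector, rose by 1.61 (SE 0.20), with 3.71 and 3.12 FPKM in the knockout-labelled libraries and 0.497 and 0.382 FPKM in wild-type. Spdef, Creb3l4 and Sytl2, all counted here, met the filter only through the group where they were high. Their calls are thus no independent support. Xbp1, a regulator of secretory capacity, was at 79.6 and 81.0 FPKM in the knockout-labelled libraries and at 314 and 139 FPKM in wild-type (limma, adjusted p = 0.11).

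Of 9 hormone receptor and gland-fate genes 3 fell, 1 rose and 5 did not pass, with a median of -2.27, beside the same shares over all tested genes. The prolactin receptor gene Prlr fell by 1.83 (SE 0.27) and Trps1 by 1.32 (SE 0.22). Prlr was at 1.18 and 0.754 FPKM in the knockout-labelled libraries and at 6.91 and 5.10 FPKM in wild-type. Spdef, above, also stands in this list, and its call is again no independent support. The glucocorticoid receptor gene Nr3c1, which lymphocytes express as well, rose by 1.73 (SE 0.29), with 18.4 and 18.6 FPKM in the knockout-labelled libraries and 3.76 and 6.20 FPKM in wild-type. Sox10, a transcription factor of gland progenitors, was at 3.05 and 2.23 FPKM in the knockout-labelled libraries and at 44.9 and 12.3 FPKM in wild-type (limma, adjusted p = 0.068), and Elf5, of the secretory alveolar lineage, at 0.895 and 0.99 FPKM with the knockout label and at 14.7 and 5.65 FPKM in wild-type (limma, adjusted p = 0.051).

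The genes whose profile over the 4 libraries was most like the mean profile of the 7, after centring each gene on its own mean log2(FPKM + 1), were Spint1, Apoc1, Col9a1, Atp6v1b1, Rbp7 and Col9a2, at Euclidean distances of 0.734 to 0.906 log2 units among 10527 named genes. On the same measure Aqp5 was nearest to that mean, at 0.296, followed by Emid1 at 0.616, while Scgb2b27, Serpina3h and Wfdc18 were at 1.33 to 1.55. Spint1, an inhibitor of epithelial serine proteases, was at 1.80 and 1.84 FPKM in the knockout-labelled libraries and at 54.6 and 20.4 FPKM in wild-type. Apoc1, an apolipoprotein gene, was at 10.4 and 10.2 FPKM in the knockout-labelled libraries and at 222 and 76.5 FPKM in wild-type. Col9a1, a chain of collagen IX, was at 4.54 and 3.61 FPKM with the knockout label and at 101 and 32.0 FPKM in wild-type. For Scgb2b27 alone the nearest gene was Scgb1b27, at 0.80, and outside the 7 genes Rbp7, Spint1 and Atp6v1b1 followed at 2.17 to 2.30. The likeness rests on 4 libraries of 2 groups and was selected from many genes, so it is a description of these libraries.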

How the data were processed

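RNA of sorted YFP-positive tumor cells was profiled in 4 libraries made with a low-input SMARTer mRNA kit, per the labels' protocols. The authors deposited 1 FPKM value per gene and library; the unit was read from the values, since column totals differ and low values step in whole-read ratios. The submitters' processing notes name build mm9; how reads were aligned, quantified and annotated is not stated there. Absolute read depth is unknown, and counts were not rebuilt for a count test.

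Of 24043 rows, 92 spike-in rows, all at 0, were left out; 27 rows hold dates in place of symbols and were tested but not named. Groups came from the sample titles. The 11138 genes reaching 1 FPKM in 2 or more libraries were fitted on log2(FPKM + 1) using limma 3.58.1 under R 4.3.3, with trended and robust variances, genotype as the only term, all 4 libraries, and Benjamini-Hochberg adjustment over all genes tested at 0.05. With 2 libraries a group an exact permutation test cannot reach that threshold. The 7 genes received no test. In simulated data over 11138 genes for this comparison, with each group's own spread, the fit called 50% of genes changed by 2 on the log2 scale, 83.2% by 3 and 96.8% by 4. The changed genes had a mean log2(FPKM + 1) above 3, and the spread was the typical one at each level. Each simulated run changed far fewer genes than the 1837 called in the data. After Benjamini-Hochberg adjustment the share called depends on that number, so these rates are not estimates for the data. Genes of wider spread would be called less often. Of the 9 epithelial markers, at differences of -3.43 to -2.41, 1 was called.

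The 7 genes and the lists were chosen with earlier results of these data known. Named genes were, in each family and function list, up to 6 of at least 5 FPKM by highest group mean and up to 4 of lowest p, up to 3 per marker list by highest group mean, the targeted gene, and the genes of smallest distance in profile; neighbours were taken by position and added to the report after values were seen, as were genes named as listed at 0 or for the group that met the filter. Emr1 stood for Adgre1, and Muc10 and Emid2 had no row, whose other symbol Col26a1 did. Promoter windows and gene order are from RefSeq, GRCm38.p6. Alternatives were the pseudocount, the filter, 3 scalings, a term for the replicate number and leaving out each library.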

Additional observations from a re-analysis of the deposited data

How the results depend on the processing

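The median difference of the 7 genes, -4.17, was -5.05 with a pseudocount of 0.1 and -1.18 when each library was centred on its epithelial markers; it ranged from -4.84 to -3.50 when 1 library was left out. Under epithelial centring Wfdc18 changed sign, to 0.029, and the other 6 kept theirs. Of the 1059 higher and 778 lower calls over all genes, 2 and 0 were made with no filter on low values (5065 genes had an unadjusted p under 0.05), 346 and 155 with the replicate block, and 0 to 4269 and 0 to 3643 when 1 library was left out. Of the 6 higher and 14 lower gland list calls, 0 and 0 were made with no filter (49 at an unadjusted p under 0.05), 2 and 4 with the replicate block, and 0 to 20 and 0 to 60 without 1 library. The cause was not tested. The replicate numbers share only a number: deviations of same-numbered libraries correlated at -0.06 over 11138 genes. Of 21 named genes called, 12 lost the call with the block, 3 with a pseudocount of 0.1, 2 after rescaling to a common total, and 21 with no filter or without either knockout-labelled library. Among named genes, 15 that did not pass took both signs when 1 library was left out: Aqp3 (-1.46 to 1.42), Car2 (-2.19 to 0.60), Sec11c (-0.67 to 0.40), Slpi (-0.35 to 0.40), Wap (-2.03 to 0.33), Serpina3f (-1.69 to 0.29), Emilin2 (-0.23 to 2.29), Krt5 (-1.46 to 0.09), Col3a1 (-1.36 to 0.11), Wfdc17 (-2.40 to 1.57), Lyz1 (-3.60 to 1.33), Lyz2 (-3.45 to 1.81), C1qb (-4.28 to 0.45), Cd14 (-1.45 to 1.05) and Pecam1 (-1.28 to 1.41).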
